A study of Mus musculus with 14 samples.

Results

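The comparison described here set the microenvironment of an AB1 tumour, 4 days after tumour inoculation, against control tissue from BALB/c mice. AB1 is a mouse mesothelioma cell line, inoculated here into mice of the strain it came from. Of the 14 one-colour Illumina bead arrays in the study, 9 were chosen by their labels: 6 day 4 arrays and 3 control arrays. The other 5 arrays, from day 14 after inoculation, were normalized together with them and entered the estimate of the spread and the choice of 1 probe per gene, and a few day 14 means are given as a description. All mice were labelled BALB/c and 8 weeks old, and no genotype, drug or other treatment was named for any group. The labels name neither the organ of either tissue nor separate animals, so the spread behind the p-values is that of these samples and may be partly technical. They also leave unsaid whether AB1 cells were part of the day 4 samples. A probe entered the comparison if its detection p-value was under 0.05 on at least 3 of the 9 arrays, which kept 12613 of 45281 probes.

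A transplanted tumour grows inside tissue of the host, and a bulk RNA sample of that tissue mixes every cell type in it. In mouse skin these are keratinocytes of the epidermis and of hair follicles, fibroblasts, fat cells, vessels, immune cells and the thin muscle sheet below the fat. Hair follicles pass through growth, regression and rest, and the keratins of the inner root sheath are made in growing follicles. In such bulk samples, fewer cells of a type and less RNA per cell cannot be told apart.

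Gene names could be given only to probes detected on most arrays. The annotation used here lists 6086 of the 7016 probes in the authors' processed table and leaves out the other 930, and each probe of that table was detected on at least 10 of the 14 arrays. It paired 6083 tested probes with a single gene symbol, for 5033 genes, and left 6530 tested probes without a name. Where a gene had several probes, the one with the highest mean over the 14 arrays was used. A gene absent from the results below may therefore have been measured by an unnamed probe, and a probe detected on no day 4 array cannot carry a name.

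All 9 arrays carried keratinocyte markers. The keratins Krt14 of the basal layer and Krt10 of the upper layers, and loricrin (Lor) of the cornified layer, had log2 intensities of 11.8 or more on every array. Markers of skeletal muscle and of fat cells were present in both groups as well. None of 10 mesothelial, 10 neutrophil or 9 liver, pancreas and gut markers was among the named tested probes, so those lists have no value here.

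A small share of the probes passed the test. At an adjusted p under 0.05 (limma, Benjamini-Hochberg over all 12613 probes), 305 probes rose at day 4 (2.42%) and 448 fell (3.55%), together 5.97%. Scaling each array by its median instead of quantile normalization gave 3 higher and 177 lower. Leaving out control replicate 1 gave 51 higher and 217 lower, and leaving out control replicate 2 gave 155 higher and 315 lower. Leaving out day 4 replicate 5 gave 203 higher and 348 lower. Among the 5033 genes, 209 rose (4.15%) and 166 fell (3.3%), with a median log2 change of 0.98 in those that rose and -0.95 in those that fell. Of these 375 genes, 326 had no overlap between day 4 and control arrays, while 13.9% of all genes tested had none. The calls and the overlap rest on the same arrays, so the 326 are no separate support for the calls.

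The falls went far deeper than the rises. At least 8-fold falls were called for 67 probes (0.531% of those tested) and at least 8-fold rises for 0 (0%), since the largest called rise was 2.56 on the log2 scale. At least 4-fold rises were called for 11 probes (0.0872%), at least 4-fold falls for 94 (0.745%). Without day 4 replicate 1, 2 or 5 or control replicate 1 the 11 became 6 or 7, and 0 under median scaling. Of the 67 probes, 6 were named and stood for 6 genes (0.119% of the genes), 61 had no gene name and 46 were detected on no day 4 array. With undetected groups held at the lowest detected signal, 63 of them still fell by at least 8-fold. Without background correction the count was 31.

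**Figure D1:**
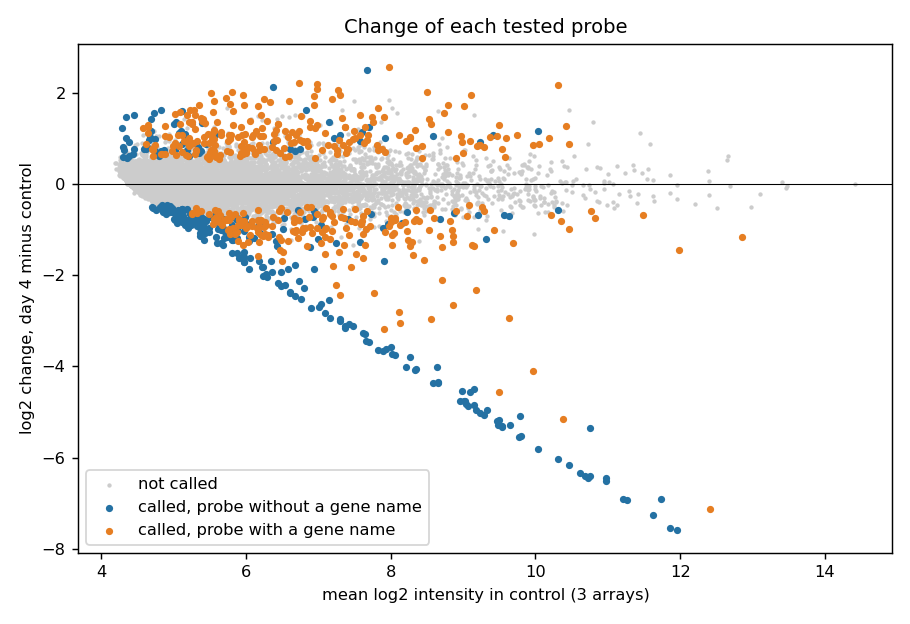
Log2 change at day 4 minus control (vertical axis) against the mean log2 intensity of the 3 control arrays (horizontal axis), 1 point per tested probe, with called probes coloured by whether they carry a gene name. The deepest falls lie on a sloping edge of mostly unnamed probes whose day 4 signal was near background, while no called probe rose by more than 2.56.

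Of the named genes that fell most, Krt27, Gjb2, Gjb6, Dlx3 and Sprr1a have known roles in hair follicle or epidermis. The 12 genes that fell most and the 12 that rose most were taken from called genes without overlap. That none of them overlaps between the groups therefore follows from the choice. The deepest fall was that of Krt27, a type I keratin of the hair follicle's inner root sheath. Its log2 intensity was 4.30 at lowest, 5.36 at the median and 6.41 at highest on the day 4 arrays, against 12.84, 12.35 and 12.03 on the control arrays. The groups lay far apart, and Krt27 was detected on 5 of 6 day 4 arrays. The log2 change was -7.14 (SE 0.33, limma adjusted p = 1.7e-11), or 141-fold lower at day 4. Without background correction it was -5.65. Krt27 was also the only tested gene of 12 hair follicle and sebaceous markers, so this list's count of 1 fall rests on it alone.

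The promoter of Krt27 is shown because it belongs to the gene with the deepest fall. It lies at chr11:99351069-99351368 on the minus strand of GRCm38.p6 (RefSeq), from 250 bases before the transcript start to 50 after it. Capitals mark TATAAA, searched on both strands, which begins 15 bases before the annotated start.
Krt27: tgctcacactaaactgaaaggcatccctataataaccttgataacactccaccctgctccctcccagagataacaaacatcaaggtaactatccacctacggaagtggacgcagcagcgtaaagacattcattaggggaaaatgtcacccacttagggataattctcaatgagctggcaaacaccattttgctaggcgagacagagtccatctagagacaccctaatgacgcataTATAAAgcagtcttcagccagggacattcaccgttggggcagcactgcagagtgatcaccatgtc
These letters were found in 13.6% of all 32851 mouse promoter windows of this length, and in a window of 2 of the 10 genes matched among the 12 that fell most. Dlx3 and Sytl2 were not matched.

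A pair of gap junction genes fell. Gjb2, a connexin of keratinocytes, had log2 intensities of 4.28, 4.99 and 6.24 (lowest, median, highest) at day 4, against 10.89, 10.27 and 9.99 in control tissue. Every day 4 value was below every control value, and the log2 change was -5.15 (SE 0.39, adjusted p = 3.06e-08). Gjb6, a related connexin of the epidermis, had 4.31, 4.75 and 5.24 at day 4, against 8.28, 7.90 and 7.55 in control tissue, again without overlap. Its log2 change was -3.18 (SE 0.24), and 4 of 6 day 4 arrays detected it. Another gap junction gene, Gja1, was chosen after its values were seen: it had 10.08, 10.56 and 10.98 at day 4, against 11.93, 12.07 and 11.93 in control tissue. It stayed bright in both groups, with a log2 change of -1.45 (SE 0.19, adjusted p = 5.12e-05).

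Dlx3 and Sprr1a also fell. Dlx3, a homeobox transcription factor needed for hair formation, had 4.48, 5.13 and 5.81 at day 4, against 8.74, 7.98 and 7.64 in control tissue. The groups did not overlap, and the log2 change was -3.04 (SE 0.29). Sprr1a, which encodes a precursor of the cornified envelope, was detected on every array: 6.14, 6.64 and 7.16 at day 4, against 9.74, 9.42 and 9.75 in control tissue. It was lower on each day 4 array, with a log2 change of -2.95 (SE 0.26, adjusted p = 2.53e-07).

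Chac1 and Lrrc15 were among the 4 named genes that fell most. Chac1, an enzyme that breaks down glutathione, had 4.45, 4.84 and 5.60 at day 4, against 9.62, 9.54 and 9.32 in control tissue. Day 4 arrays were all far below control, with a log2 change of -4.57 (SE 0.21, adjusted p = 2.07e-11). Lrrc15, a leucine-rich repeat membrane protein, varied more at day 4, with 4.51, 5.84 and 7.35, against 10.02, 10.05 and 9.84 in control tissue. Its highest day 4 value, on replicate 4, was still below control, and the log2 change was -4.11 (SE 0.47).

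The log2 change was -2.96 for Ctps (CTP synthase), -2.81 for Slc7a8 (an amino acid transporter), -2.65 for Cpm (carboxypeptidase M), -2.44 for Sytl2 (a synaptotagmin-like protein of vesicle traffic) and -2.40 for Mab21l4, the remaining genes of the 12. By the choice of the 12, none of them overlapped between the groups. A second Ctps probe gave -2.22 and was called too. Each of the 12 was called under every alternative that tested it, including median scaling, while their sizes shrank without background correction, for example to -1.74 for Gjb6.

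**Figure D2:**
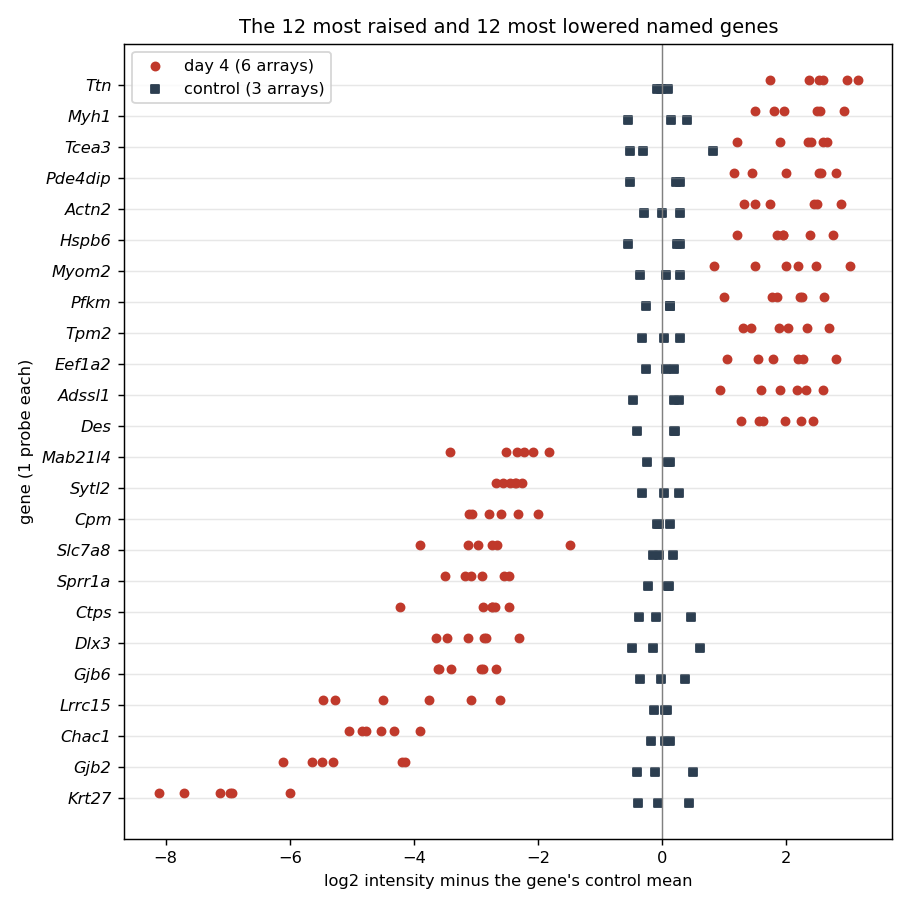
Log2 intensity minus the gene's control mean on each array for the 12 genes that rose most and the 12 that fell most among called genes without overlap, with day 4 arrays as red circles and control arrays as dark squares. Krt27 lies about 6 to 8 log2 units below control on the day 4 arrays, while Ttn, the gene that rose most, has a mean change of 2.56.

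The day 14 arrays give a later level for these genes, as a description. All 12 genes that fell most at day 4 had a day 14 mean above their day 4 mean and below their control mean. Krt27 averaged 11.20 at day 14 and Gjb2 averaged 8.65. The 12 genes that rose most had day 14 means below their day 4 means, and 1 of them, Myh1, averaged 6.10, below its control mean as well. These comparisons share their day 4 and control arrays with the choice of genes and were not tested.

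More genes that fell were picked after their values were seen, and the choice was not limited to genes of skin. Of all genes, 3.3% fell. Krt17, a keratin of the outer root sheath and of stressed epidermis, had 11.35, 11.64 and 12.07 at day 4, against 12.94, 12.84 and 12.76 in control tissue. The groups did not overlap, and the log2 change was -1.16 (SE 0.16). Slc40a1, the iron exporter ferroportin, had 6.27, 7.0 and 7.2 at day 4, against 9.29, 9.07 and 9.18 in control tissue. It fell by 2.32 on the log2 scale, with no overlap. The log2 change was -2.11 for Gpnmb, a glycoprotein of pigment cells and macrophages, and -1.54 for Gsdma, a gasdermin of skin. It was -1.06 for Notch1, a receptor of cell fate decisions, -1.23 for the transcription factor Sp6 and -1.06 for the transcription factor Ovol1. The Notch1 call ended without control replicate 1 and under median scaling. Ltf, lactoferrin, was the only tested gene of 10 mammary and secretory epithelial markers and fell by 1.45 (SE 0.32).

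Keratinocyte markers did not all point the same way. Of 14 epidermal keratinocyte markers 9 were tested, and 3 rose while 0 fell, beside 4.15% and 3.3% of all genes. The list's median log2 change was 0.56, against 0.02 over all genes. Krtdap, a secreted protein of differentiating keratinocytes, had 9.97, 10.43 and 10.86 at day 4, against 9.0, 9.53 and 9.59 in control tissue, without overlap (log2 change 1.03, SE 0.24). Sbsn, suprabasin of the upper epidermis, changed by 0.99 (SE 0.22), and Krt5, the basal keratin, by 0.90 (SE 0.22). Involucrin (Ivl), of the cornified envelope, pointed the other way, with 7.87, 9.05 and 9.32 at day 4, against 9.76 to 10.17 in control tissue, and missed the threshold (log2 change -1.09, SE 0.34, adjusted p = 0.07).

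The calls in this list ended without control replicate 1. Summed over the 9 genes, the level was 24193 to 32549 on the day 4 arrays, against 13945, 26428 and 25223 on the control arrays, in normalized linear units. Control replicate 1 stood far below the others, and the groups overlapped. Without it, 0 of 9 genes were called and the median was 0.21. Calls were lost over all genes as well, with 101 of 5033 called against 375 with all arrays. Under median scaling, scaling by detected probes, no filter on dim probes and the replicate block 0 of 9 were called as well. Under cyclic loess 5 rose and 1 fell. With the 9 arrays alone, and with the authors' processed values, 3 rose and 1 fell.

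A pair of late cornified envelope genes rose. Lce1c, chosen after its values were seen, had 9.61, 10.32 and 10.98 at day 4, against 8.17, 8.68 and 9.35 in control tissue, without overlap. The log2 change was 1.55 (SE 0.30, adjusted p = 0.0033). Lce1f changed by 1.39 (SE 0.33), a call that ended without control replicate 1 or 2, and the Lce1 genes are close copies whose probes may share signal. Sprr4, of the small proline-rich family, fell by 1.57. Itgb4, the integrin chain that anchors basal keratinocytes, had 9.27, 9.38 and 9.79 at day 4, against 6.98, 7.79 and 8.70 in control tissue. All day 4 arrays were higher, with a log2 change of 1.66 (SE 0.28), while a second Itgb4 probe gave 0.59 and was not called.

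Skeletal muscle markers had the highest median change of the lists with a tested member. Of 16 skeletal muscle markers 15 were tested: 5 rose, 0 fell and 10 missed the threshold, beside 4.15% higher and 3.3% lower among all genes. All 15 had a positive log2 change, between 1.12 and 2.56, with a median of 1.56 against 0.02 over all genes. In 11 of 15 the day 4 and control arrays did not overlap, while 13.9% of all genes had no overlap.

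Titin (Ttn), the giant spring protein of the sarcomere, changed most. Its log2 intensity was 9.72, 10.54 and 11.13 (lowest, median, highest) at day 4, against 7.96, 8.07 and 7.89 in control tissue. Control arrays lay close together and below all day 4 arrays, and the log2 change was 2.56 (SE 0.37, adjusted p = 0.000167), or 5.92-fold. A second Ttn probe gave 1.28 and was not called. Myh1, a fast myosin heavy chain, had 8.23, 8.97 and 9.67 at day 4, against 6.18, 7.14 and 6.88 in control tissue. The groups did not overlap (log2 change 2.21, SE 0.47), but Myh1 and Myh4 are close copies whose probes may share signal.

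The other called markers were Eno3, the muscle enolase, with a log2 change of 1.72 (SE 0.43), Actn3, an actinin of fast fibres, with 1.52 (SE 0.43), and Ckm, muscle creatine kinase, with 1.35 (SE 0.36). Those that missed the threshold included the fast troponin Tnnt3, at 1.83 (SE 0.53, adjusted p = 0.0512), and Acta1, the skeletal actin, at 1.12 (SE 0.50, adjusted p = 0.234). Acta1 had 11.89 at lowest and 13.10 at highest at day 4, against 12.28, 11.52 and 10.56 in control tissue, so the groups overlapped.

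The muscle signal also differed from array to array within each group. The summed level of the 15 markers was 25456, 25387, 14258, 21252, 29930 and 18015 on day 4 replicates 1 to 6, against 11943, 8903 and 4736 on the control arrays. Every day 4 sum was above every control sum, although day 4 replicate 3 came close to control replicate 1. Which muscle cells or fragments were in each sample was not measured, and their part in the result was not tested. With the 9 arrays corrected, normalized and fitted alone, 14 of 15 were called, and without control replicate 1, 2 or 3 there were 1, 2 and 2. Over all 5033 genes, these omissions left 101, 208 and 318 called, against 375 with all arrays. The list's median log2 change was then 1.83, 1.64 and 1.27, against 1.56 with all arrays. Without day 4 replicate 1, 2 or 5, 3 of 15 were called. With no filter on dim probes 1 of 15 was called, and under median scaling 0 of 15, with a median of 1.29.

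**Figure D3:**
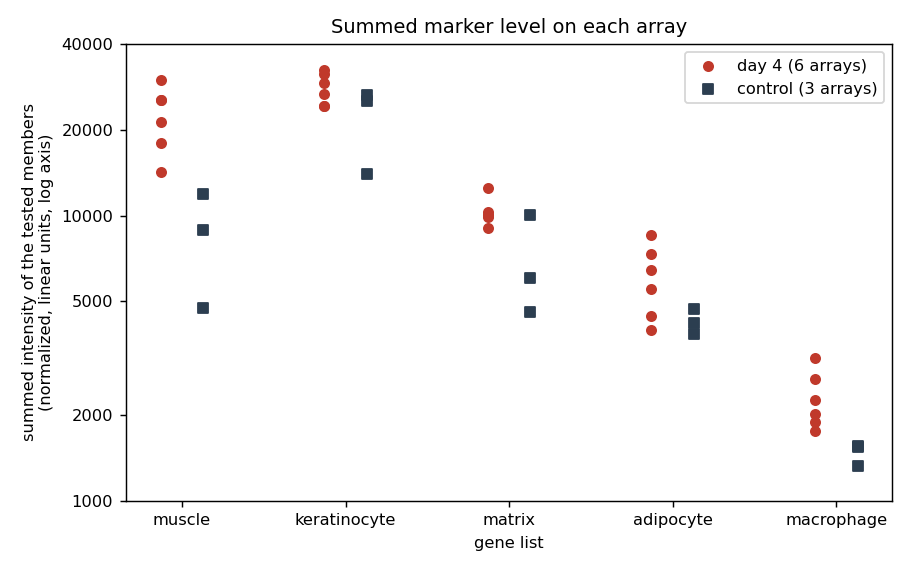
Summed normalized intensity of the tested members of 5 marker lists on each array (log axis, linear units), with day 4 arrays as red circles left of control arrays as dark squares. Muscle sums lie at 14258 to 29930 at day 4 and 4736 to 11943 in control tissue, while control replicate 1 has the lowest keratinocyte and matrix sums.

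The 12 genes that rose most, also chosen for a lack of overlap, hold other parts of the contractile apparatus. Actn2, the Z-disc actinin, had 8.59, 9.37 and 10.15 at day 4, against 7.27, 7.56 and 6.97 in control tissue, without overlap (log2 change 2.07, SE 0.38). Desmin (Des), the muscle intermediate filament, had 8.48, 9.0 and 9.63 at day 4, against 7.4, 7.39 and 6.79 in control tissue, also without overlap (1.86, SE 0.34). Myom2, of the M band, changed by 2.01 (SE 0.50; not called with any 1 control left out), and Tpm2, a tropomyosin, by 1.95 (SE 0.43), while a second Tpm2 probe gave 0.29 and was not called. Hspb6, a small heat shock protein of muscle, changed by 2.02 (SE 0.39).

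Of the others, Pfkm, Adssl1 and Eef1a2 act in the metabolism or protein synthesis of muscle. Pfkm, the muscle phosphofructokinase, changed by 1.95 (SE 0.39), Adssl1, the muscle adenylosuccinate synthase, by 1.92 (SE 0.38), and Eef1a2, the elongation factor isoform of muscle and neurons, by 1.95 (SE 0.33). A second probe was called for each of these, with 1.11, 1.37 and 2.01. Tcea3, a transcription elongation factor, had 8.19, 9.36 and 9.63 at day 4, against 6.46, 6.67 and 7.80 in control tissue, without overlap (2.19, SE 0.37). Pde4dip, myomegalin, changed by 2.09 (SE 0.60), but it was called under only 8 of 23 alternatives, and its other probes gave 0.04 and -0.02. None of the 12 changed sign under any alternative, 0 of them were called under median scaling, and 8 were called without control replicate 1.

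Muscle genes outside the list, picked after their values were seen, also rose. The myosin-binding proteins Mybpc1 and Mybpc2 changed by 1.82 (SE 0.40) and 1.83 (SE 0.51; called under 7 of 23 alternatives), Klhl41, a sarcomere protein, by 1.74 (SE 0.39), Trim72, a membrane repair factor, by 1.48 (SE 0.30), and Mylk2, the skeletal myosin kinase, by 1.35 (SE 0.36; called under 14 of 23 alternatives). Mef2c, a transcription factor of muscle and other cells, had 8.14, 8.77 and 9.18 at day 4, against 6.49, 7.17 and 7.14 in control tissue. It was higher on every day 4 array, with a log2 change of 1.73 (SE 0.24, adjusted p = 9.34e-05), and both its other probes were called, with 1.86 and 1.45. Median scaling alone among the 23 alternatives ended its call.

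Promoters of 3 of the 12 genes that rose most are shown because they share the letters CTANNNNTAG. This is a looser form of the motif that MEF2 factors bind, which has A or T at the 4 inner bases. The inner bases are AATT for Ttn and TATT for Tcea3, but CAAA for Des, which departs from that motif. The letters searched read the same on both strands, and capitals mark them. All are GRCm38.p6 windows from RefSeq. That of Ttn is chr2:76982498-76982797, minus strand, with the match 166 bases before the start. That of Tcea3 is chr4:136247707-136248006, plus strand, with the match 67 bases before the start. That of Des is chr1:75360042-75360341, plus strand, with the match 6 bases after the start.
Ttn: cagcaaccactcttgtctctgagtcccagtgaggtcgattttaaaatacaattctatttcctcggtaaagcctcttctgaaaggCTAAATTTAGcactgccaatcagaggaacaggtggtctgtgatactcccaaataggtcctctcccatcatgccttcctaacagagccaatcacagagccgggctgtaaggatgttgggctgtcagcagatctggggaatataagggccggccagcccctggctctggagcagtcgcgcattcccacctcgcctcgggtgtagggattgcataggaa
Tcea3: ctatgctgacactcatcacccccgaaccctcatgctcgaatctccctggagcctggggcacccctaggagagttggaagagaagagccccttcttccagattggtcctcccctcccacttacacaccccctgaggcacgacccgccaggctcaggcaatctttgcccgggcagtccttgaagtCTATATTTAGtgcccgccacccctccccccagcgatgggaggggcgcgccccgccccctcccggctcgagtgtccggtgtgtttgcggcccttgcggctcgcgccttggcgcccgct
Des: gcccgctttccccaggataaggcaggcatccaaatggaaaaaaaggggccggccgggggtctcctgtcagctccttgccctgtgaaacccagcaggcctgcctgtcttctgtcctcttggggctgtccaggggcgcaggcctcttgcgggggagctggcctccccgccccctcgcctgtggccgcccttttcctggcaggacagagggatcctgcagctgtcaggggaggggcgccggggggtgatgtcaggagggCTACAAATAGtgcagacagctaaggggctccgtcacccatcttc
The letters were found in a window of 4 of the 11 genes matched among those that rose most, and of 1 of 10 among those that fell most. Adssl1 was the other of the 4, with the inner bases GTCC, which also depart from the MEF2 motif. Of all single windows, 3.69% held the letters. Myom2 was not matched. The E-box letters CANNTG, in 72.3% of all windows, were in 8 of 11 and 8 of 10. The letters CTTTGA, in 16% of all windows, were in 1 of 11 and 1 of 10, and TATAAA was in 2 of the 11. A match is a description of the letters and no measure of binding.

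Col6a1 and Col1a1 rose among the collagens and other matrix genes. Of 15 fibroblast and matrix genes 12 were tested, of which 2 rose and 0 fell, beside 4.15% and 3.3% of all genes, with 11 positive and a median log2 change of 0.57. Col6a1, a chain of collagen VI, had 8.65, 9.16 and 9.87 at day 4, against 7.55, 8.23 and 8.58 in control tissue, without overlap (1.08, SE 0.30). Col1a1, a chain of collagen I, had 8.23, 8.63 and 9.0 at day 4, against 7.45, 8.16 and 8.02 in control tissue, barely apart (0.78, SE 0.23, adjusted p = 0.0499). Its partner chain Col1a2 reached 1.49 (SE 0.51) but varied among the controls, with 5.05 on control replicate 1 against 7.07 and 7.39 on the other controls (adjusted p = 0.104). The list's summed level was 9029 to 12485 at day 4, against 4580, 6058 and 10078 in control tissue, so 1 control array lay among the day 4 values. Without control replicate 1, and likewise without control replicate 2 or day 4 replicate 4, 5 or 6, 0 of 12 were called (5 of 12 had an unadjusted p under 0.05 with all arrays). Without day 4 replicate 2 or 3 there was 1. Under median scaling, scaling by detected probes, no filter on dim probes and the authors' processed values 0 of 12 were called.

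Genes of immune cells were sparse among the named probes. Of 14 macrophage and monocyte markers 8 were tested and 0 were called by limma (4 at an unadjusted p under 0.05), although all 8 were positive, with a median of 0.57. Their summed level was 1762 to 3162 at day 4, against 1330, 1550 and 1555 in control tissue, without overlap. Cd163, a scavenger receptor of tissue macrophages, had a log2 change of 0.81 (SE 0.25, adjusted p = 0.0657), and Adgre1, an adhesion receptor of macrophages, one of 0.93 (SE 0.41, adjusted p = 0.242). Among 14 T cell markers 3 were tested and 0 called, also 0 at an unadjusted p under 0.05: Cd3e at 0.29, Prf1 at -0.16 and Cd8b1 at -0.12. The checkpoint ligand Cd274 was at 0.38 (SE 0.23), and Foxp3, which marks regulatory T cells, at -0.17 (SE 0.18).

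Other immune lists were as sparse. Cd74 and H2-Ab1, of antigen presentation, were at 0.73 (SE 0.26) and 0.87 (SE 0.30) and were not called. From the lists of NK cell, B cell and mast cell markers 1 gene each was tested, with 0 called. Of 16 inflammatory cytokines and chemokines only Ccl8, at 0.47, and Il1rn, at -0.08, were tested. All 5 tested interferon response genes were positive, led by Gbp2 at 0.73 (SE 0.30), and 0 were called. Over the 15 lists with tested members but no call, 15 of 53 list entries had an unadjusted p under 0.05, and 23.4% of all genes did.

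Single genes passed in other lists, where 4.15% of all genes rose and 3.3% fell. Serpina3n, an acute-phase protease inhibitor, had 7.50, 7.73 and 8.00 at day 4, against 6.4, 7.2 and 6.76 in control tissue, without overlap (0.94, SE 0.24), and was the only one called of 8 complement and acute phase genes. Its call ended without control replicate 1 or 3 or day 4 replicate 6, and under median scaling, scaling by detected probes and no filter. Ldha, lactate dehydrogenase, was the only one called of 7 angiogenesis and hypoxia genes, at 0.97 (SE 0.27), while Vegfa was at 0.53 (SE 0.33). The Ldha call ended with any 1 control, or any 1 of day 4 replicates 2 to 5, left out, and was kept under 10 of 23 alternatives. Gapdh, often used as a reference and a glycolytic enzyme itself, was at 1.07 (SE 0.25) and was called, while the other 6 reference genes were not. The list of 7 ranged from -0.58 to 1.07, with a median of -0.09. Of the 7, 4 had an unadjusted limma p under 0.05, beside 23.4% of all genes. The Gapdh call ended without control replicate 3, and under median scaling, scaling by detected probes and no filter. In 6 adipocyte, 5 endothelial, 7 matrix remodelling, 6 proliferation, 2 nerve and 2 erythrocyte and platelet genes 0 were called. Adipoq, the fat cell hormone, was at 0.92 (SE 0.34), and Cdc20, of cell division, at -0.46 (SE 0.21).

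**Figure D4:**
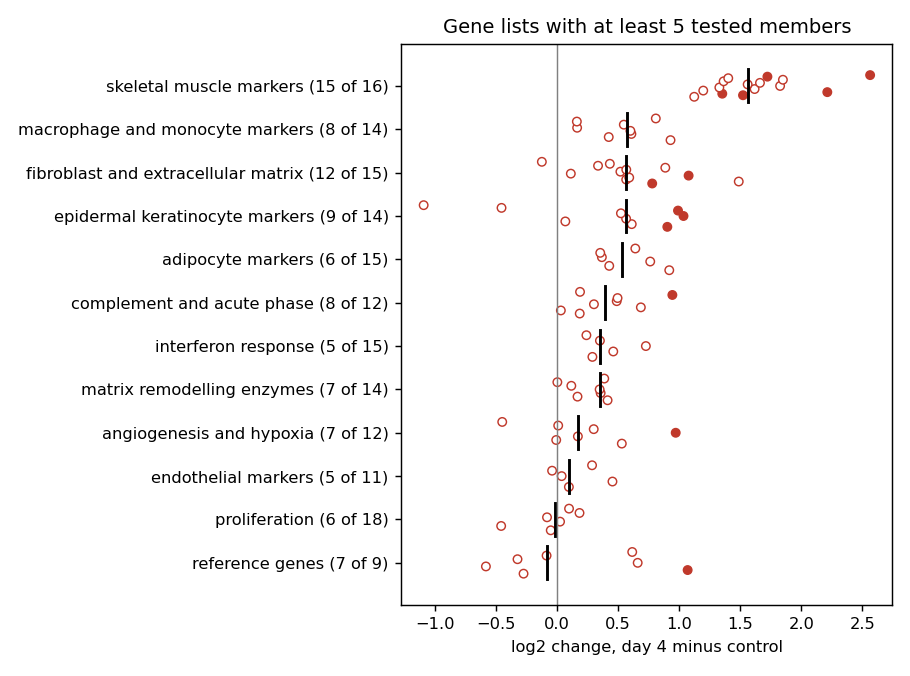
Log2 change at day 4 minus control for each tested member of the lists with at least 5 tested members (tested of listed in brackets), with filled points for called genes and a bar at the list's median. The muscle list is the one whose members all lie above 1, with a median of 1.56.

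Probes without a gene name held most of the deep falls. Of these 6530 probes 65 rose (0.995%) and 256 fell (3.92%). Of all 45281 probes, 134 were detected on every control array and no day 4 array, and 9 showed the reverse. The first rule asks for 3 detections and 6 absences, the second for 6 detections and 3 absences. The 2 counts are therefore not like measures. Of the 134, 112 were called lower, and of the 9, 5 were called higher. The same arrays chose both sets, so the direction of these calls was set by the rule. None of either set has a name here. Without control replicate 2 the 134 became 223. The 9 became 25 and 14 without day 4 replicate 2 or 6, and 35 and 24 without control replicate 2 or 3. With 1 array fewer to meet the rule, both counts could only stay or grow. The probe ILMN_2611658 had 4.20 to 4.41 at day 4, against 12.41, 11.99 and 11.19 in control tissue. It was detected on no day 4 array and was at least 153-fold lower there, taking the lowest detected signal as its bound (adjusted p = 4.1e-14). The probe ILMN_2718552 had 4.16 to 4.79 at day 4, against 12.19, 11.89 and 11.77 in control tissue, and was detected on 1 of 6 day 4 arrays. Probes ILMN_2416670 and ILMN_1256343 rose, by 2.50 (SE 0.38) and 2.13 (SE 0.28).

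The arrays themselves differed in signal. Day 4 arrays detected 10568 ± 1758 probes (SD, n = 6) and control arrays 11376 ± 622 (SD, n = 3), a difference within the spread (exact permutation test, two-sided, p = 0.512; the smallest p that 84 splits allow is 0.0119). Day 4 replicate 2 detected 8257 and stood apart on the second principal component (17% of variance), while the first (48.8%) separated all day 4 from all control arrays. Across probes, the median SD between replicates was 0.28 at day 4 and 0.19 in control tissue. Without day 4 replicate 2, 287 probes were called higher and 387 lower.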

How the data were processed

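Total RNA from 14 samples was labelled with biotin, per the labels' protocols, and hybridised to 1-colour Illumina arrays. The deposited table gave, per the file headers, the intensity of each probe on a linear scale and beside it a detection p-value. The exporting software is not given in the sources used here. A second deposited table, processed by the authors, held log2 values of 7016 probes and was used as an alternative and for gene names. Its columns labelled control 1 and control 2 matched the intensities of control 2 (r = 0.962 across probes, 0.663 with its own) and control 1 (0.988, own 0.631). Both are controls, so no group changes, and replicate numbers here are those of the intensity table. Every other column matched its own intensities best, with r from 0.612 (day 4 replicate 2) to 0.993 (day 14 replicate 4). Every column of sample values was used.

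Intensities of all 14 arrays were corrected with normexp (offset 16), with the negative controls' level inferred from detection p-values, quantile-normalized and log2-transformed (limma 3.58.1, R 4.3.3). Quantile normalization hides a shift shared by most probes, and the offset compresses dim probes. A model with 3 groups was fitted with lmFit and eBayes over all 14 arrays, so the day 14 arrays add to the spread. Day 4 minus control was tested two-sided with Benjamini-Hochberg adjustment over 12613 probes. The number of arrays limits the precision. The fit was tested on simulated data.

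Named genes were the 12 highest and 12 lowest log2 changes among called genes without overlap, up to 4 per list by size, and 2 unnamed probes each way. Genes said to be chosen after their values were seen lie outside that rule, as do some list members. The comparison and the 26 lists were chosen with earlier results of these data known. No p-value was adjusted over a list alone. Alternatives covered background, scaling, filter, samples, weights, variance and the replicate block; list counts and scaling by detected probes were added after seeing the data.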

Additional observations from a re-analysis of the deposited data

Results flagged for a closer look

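Among 34 measures of the named genes and list sums, 2 had a day 4 array far from the others, and chance flags about 1 in 20. Ctps had a log2 intensity of 4.32 on day 4 replicate 2, while the other day 4 arrays lay at 5.67 to 6.09, against 8.18 to 9.02 in control tissue. Day 4 replicate 2 detected the fewest probes, 8257, and the part of this in the Ctps value was not tested. The summed level of the fibroblast and matrix genes was 12485 on day 4 replicate 6, while the other day 4 arrays lay at 9029 to 10288. Without that array 0 of 12 of these genes were called.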

How the results depend on the processing

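Against 753 called probes (305 higher, 448 lower; 2250 at an unadjusted p under 0.05), median scaling called 180 (3 higher, 177 lower), scaling by detected probes 374 (133 and 241), no filter 393 (78 higher), detection on all 9 arrays 490 (186 lower), array weights 1160 (553 higher), cyclic loess 516 higher, an adjusted p under 0.01 344 and a 2-fold minimum 366. Scaling by detected probes moved the median log2 change of all tested probes to 0.14, against 0.02. Leaving out 1 replicate gave 268 (without control replicate 1) to 755 in all, 51 to 298 higher and 217 to 457 lower. The replicate block called 518 (223 higher, 295 lower), and ended the calls of Notch1, Myom2, Ldha, Serpina3n, Col1a1 and Col6a1, among others. Same-numbered samples correlated by -0.04, 0.24 and 0.01, and the numbers were not taken as pairs. The 2 deposited tables disagree on which control is replicate 1 and which is replicate 2. The block and the correlations of replicates 1 and 2 may therefore use the wrong control. The 67 falls of at least 8-fold were 31 without background correction and 42 with normexp without negative controls. The 11 rises of at least 4-fold were 3 under both of these, 0 under median scaling, 7 when scaled by detected probes, and 6 to 16 without 1 replicate. The 134 probes detected in control tissue only became 136 to 223 without 1 replicate, and the 9 detected at day 4 only became 11 to 35. Leaving out an array removes a condition, so these counts could only stay or grow. At a detection p under 0.01 the 9 became 5. The spread without background correction was 0.115 at day 4 and 0.0807 in control tissue. The causes of these shifts were not tested. No named gene that was called changed sign under any alternative. Dim probes are limited by background: a fall of a probe undetected at day 4 is a lower bound.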

Other observations

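Satb1 and Hoxa7 also rose and were chosen after their values were seen. Satb1, a chromatin organiser, had 7.38 at lowest and 8.16 at highest at day 4, against 6.07, 6.57 and 6.70 in control tissue. Hoxa7, a homeobox gene of trunk identity, had 8.78 at lowest and 9.67 at highest at day 4, against 7.77, 7.53 and 7.97 in control tissue. Neither gene overlapped between the groups, with log2 changes of 1.32 (SE 0.23, limma adjusted p = 0.0012) and 1.35 (SE 0.21, limma adjusted p = 0.00034). Both were called under 22 of 23 alternatives.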
